A study of Mus musculus with 4 samples.

Results

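The transcripts examined here encode the proteins that move zinc into and out of the cytosol and that hold it there. They are 10 genes chosen by symbol, with earlier results of these data known. The 10 are the metallothioneins Mt1 and Mt2, the ZIP importers Slc39a1, Slc39a6, Slc39a10 and Slc39a14, and the ZnT exporters Slc30a1, Slc30a5, Slc30a6 and Slc30a9. Of the 10, 9 were among the 16861 genes listed in each library. Mt2 was not listed, so its transcript was not analysed here. RNA came from germinal vesicle (GV) oocytes of C57BL/6J mice aged 3 weeks, which were freed of cumulus cells, stained with the DNA dye Hoechst and sorted by eye. In the non-surrounded nucleolus (NSN) configuration the chromatin is diffuse, whereas in the surrounded nucleolus (SN) configuration it forms a ring around the nucleolus. Each group had 2 libraries, and each library pooled 15 oocytes. No source ties a library to separate animals, so the p-values measure the spread between these libraries only.

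ZIP proteins (the Slc39 family) raise cytosolic zinc by import from outside the cell or from organelles, and ZnT proteins (the Slc30 family) lower it by export or by loading organelles. Metallothioneins are small cysteine-rich proteins that bind zinc and copper, and their genes are switched on by the zinc-sensing transcription factor Mtf1 through short promoter motifs called metal response elements. Zinc is a known regulator of the mammalian egg: the oocyte takes up zinc during meiotic maturation, keeps much of it in cortical vesicles and releases part of it at fertilisation. The pair Slc39a6 and Slc39a10 is known for zinc uptake in mouse oocytes.

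The metal response element has the cores TGCACNC and TGCGCNC, where N is any base, and the promoters of both metallothioneins and of Slc30a1 are shown because these genes are textbook targets of Mtf1. The sequences are the 250 bases before the start site in RefSeq (build GRCm38.p6), read 5′ to 3′ on the strand of the gene, with the bases of each core in capitals on either strand. Mt1 lies on the plus strand at chr8:94178839-94179088, Mt2 on the plus strand at chr8:94172368-94172617, and Slc30a1 on the plus strand at chr1:191906531-191906780.
Mt1: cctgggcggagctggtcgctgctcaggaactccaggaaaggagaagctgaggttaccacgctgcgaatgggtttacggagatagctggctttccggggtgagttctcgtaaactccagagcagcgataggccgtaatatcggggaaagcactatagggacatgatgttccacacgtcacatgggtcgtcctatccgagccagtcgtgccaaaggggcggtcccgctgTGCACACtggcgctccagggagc
Mt2: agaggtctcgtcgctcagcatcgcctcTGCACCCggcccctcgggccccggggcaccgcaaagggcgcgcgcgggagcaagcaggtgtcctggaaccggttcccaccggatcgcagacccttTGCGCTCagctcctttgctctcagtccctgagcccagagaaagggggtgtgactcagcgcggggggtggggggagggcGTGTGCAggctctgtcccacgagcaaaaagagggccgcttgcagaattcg
Slc30a1: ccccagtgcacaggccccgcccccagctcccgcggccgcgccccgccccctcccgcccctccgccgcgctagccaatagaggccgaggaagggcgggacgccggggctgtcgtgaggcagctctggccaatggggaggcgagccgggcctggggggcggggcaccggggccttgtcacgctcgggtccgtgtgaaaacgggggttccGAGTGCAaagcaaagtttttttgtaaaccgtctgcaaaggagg
Mt1 held 1 core from 23 to 17 bases before the start, Mt2 held 3, and Slc30a1 held 1 on the opposite strand from 43 to 37 bases before the start. No cores overlapped each other in these windows. At least 1 core stood in 21.4% of the 32851 promoters searched in the same way and at least 3 in 1.3%. Of the 10 genes, 8 had a promoter in this table. Slc30a5 also held 1 core, and none was found in the windows of Slc30a6, Slc30a9, Slc39a1 or Slc39a10. Among further zinc genes searched, Slc30a4 held 2 cores, Mt4 held 1 and Mt3 none, and Slc30a3 held 1 in only 1 of its windows. At least 2 cores stood in 5.2% of the promoters searched. Cores after the start, or farther before it, were not searched, so these counts depend on the start site used and are not totals for a gene. A match of letters is not a binding site.

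The values deposited by the authors are FPKM, that is read pairs scaled to the gene length the authors used and to the depth of the library. Comparisons of levels between genes rest on these lengths. The exonic length in GENCODE vM39 was 1 to 4.35 times the recovered length among the ZIP, ZnT and metallothionein genes listed. Close orders between genes can therefore turn, whereas ratios of FPKM between libraries for 1 gene do not depend on length. Levels recomputed with the vM39 lengths, an alternative chosen after the data were seen, are given where they matter. Library totals recovered from the FPKM were 17069772 to 17998361 read pairs, and whole read pairs were recovered for 99.9% of the genes. Intervals given below for a single library are exact Poisson 95% intervals, which cover only the counting error, since PCR copies are not separate molecules. SN was compared with NSN with limma on log2(FPKM + 0.5) over the 11672 genes whose mean FPKM reached 0.5, and a gene was called at a Benjamini-Hochberg adjusted p under 0.05 with a fold of at least 1.2. Of these genes 7.93% were called (926 genes), that is 5.95% higher in SN and 1.98% lower, and 695 against 231 calls became 67 against 167 when the libraries were scaled to the median gene. At an unadjusted p under 0.05 limma gave 3695 of the 11672 genes in either direction. With voom on the recovered read pairs 1759 of 11662 genes were called higher in SN and 533 lower. The median difference over all tested genes was 0.14 on the log2 scale. Both the added 0.5 and the filter depend on the gene length. With the vM39 lengths the means of Slc30a9 and Slc39a11 were 0.302 and 0.257, below the filter. All 12 oocyte markers were listed, and 8 of the 12 were called lower in SN. Their summed FPKM was 25370 to 26994 in NSN and 16686 to 18048 in SN. These sums are weighted by gene length and are not the markers' share of the reads. Because FPKM are scaled to the library total, a smaller share of the reads for abundant transcripts raises the others. Its part in the rises described here was not tested. Of 16 granulosa and cumulus cell markers, 10 were listed, 6 including Amh and Foxl2 were not, and none of the 4 tested was called by limma (0 at an unadjusted p under 0.05) or by voom on the recovered read pairs. Their summed FPKM was 9.64 to 13.8 in NSN and 13.9 to 14.1 in SN, most of it from Cyp19a1 (5.81 to 8.38 FPKM). Every library pooled 15 oocytes, and FPKM are scaled to the depth of the library, so the RNA content of an oocyte cannot be read from them.

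Of the 9 listed genes, 6 passed the filter, and 2 of these 6 were called, Slc39a10 and Slc30a1, both higher in SN oocytes. Over all tested genes 5.95% were called higher in SN, and 66.7% had a difference in that direction. A count of 2 of 6 is small and was not tested against these shares. None of the 6 was called lower by limma (0 lower at an unadjusted p under 0.05) or by voom, which called 533 of 11662 genes lower. The other 4 tested genes were Slc39a6, Slc30a5, Slc30a6 and Slc30a9. The SN and NSN libraries did not overlap for 5 of the 6, of which 4 were higher and 1 lower in SN. Over all tested genes 62.6% did not overlap, 44.8% with SN above and 17.8% with SN below, so that a lack of overlap was common. The median difference over the 6 genes was 0.31, beside 0.14 over all tested genes. For 1 gene in 2 against 2 libraries, the lowest two-sided p of the exact permutation test is 0.333, so each p here rests on the variance that limma pools over genes.

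The levels of the 9 listed genes differed widely. Slc39a10 and Slc39a6 had the highest mean FPKM, 56.0 and 52.5, and exceeded 93.2% and 92.9% of all listed genes. Slc30a5 followed at a mean of 5.37 FPKM, above 68.3% of the genes. Slc30a6, Slc30a1 and Slc30a9 had means of 1.67, 1.30 and 0.830 FPKM, and each overlapped its neighbour in this order over the 4 libraries. The ranges of Slc39a10 and Slc39a6 overlapped as well, whereas Slc39a6 stood clear of Slc30a5 and Slc30a5 clear of Slc30a6. With the vM39 lengths Slc39a10 and Slc39a6 remained above the other 7 genes, at means of 25.3 and 18.0, and Slc30a1 came above Slc30a6, at 1.2 against 0.606. Mt1, Slc39a1 and Slc39a14 lay between 0 and 0.269 FPKM in every library, and overlapped each other.

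**Figure D1:**
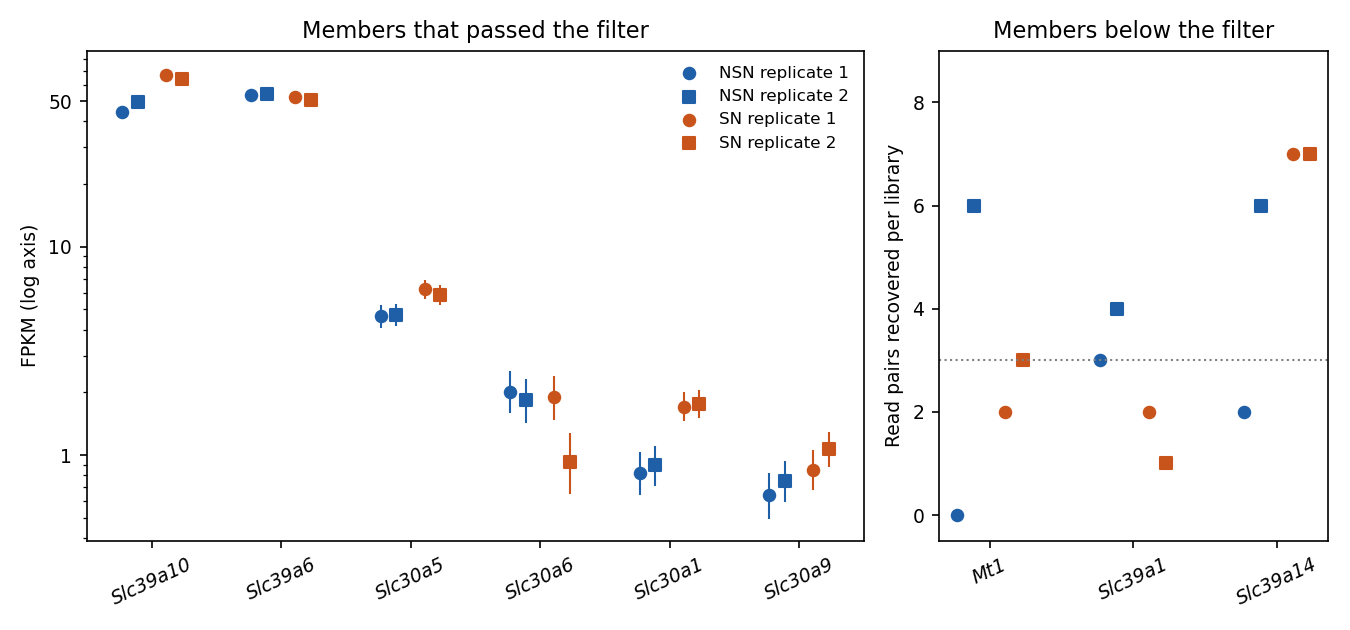
The left panel plots the FPKM of the 6 genes that passed the filter on a log axis, with 1 point per library and bars for exact Poisson 95% intervals (hidden by the point for Slc39a10 and Slc39a6). The right panel plots the recovered read pairs of the other 3 listed genes, with a dotted line at 3 read pairs, and no library holds more than 7 read pairs for any of them. NSN is blue and SN orange, circles are replicate 1 and squares replicate 2.

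Slc39a10 encodes ZIP10, an importer at the plasma membrane of the LIV-1 subfamily. The gene (ENSMUSG00000025986.8) lies on chromosome 1 of GRCm39 from 46845872 to 46964964 on the minus strand. Its FPKM was 44.4 in NSN replicate 1 and 49.4 in NSN replicate 2. It was 66.5 in SN replicate 1 and 63.6 in SN replicate 2. Both SN libraries lay above both NSN libraries, and the gap between groups exceeded the gap between replicates. The mean level was 46.9 ± 3.57 FPKM in NSN and rose to 65.0 ± 2.10 FPKM in SN (SD, n = 2). This is a log2 difference of 0.47 (standard error 0.09, limma adjusted p = 0.041), or a fold of 1.38. The read pairs behind it numbered 4248 to 6289 per library. The rise was 0.32 with an adjusted p of 0.076 after median scaling, and with 1 library left out it was 0.39 to 0.55, passing only without NSN replicate 2 (adjusted p = 0.020). The adjusted p was 0.12 without NSN replicate 1, 0.10 without SN replicate 1 and 0.0996 without SN replicate 2 (limma).

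Slc39a6 encodes ZIP6, the partner of ZIP10 in a heteromer. The gene (ENSMUSG00000024270.13) lies on chromosome 18 of GRCm39 from 24711955 to 24736969 on the minus strand. Its FPKM was 53.4 and 54.2 in NSN, against 52.0 and 50.5 in SN. The SN libraries lay slightly below the NSN libraries, at 51.3 ± 1.09 against 53.8 ± 0.567 FPKM (SD, n = 2). The log2 difference was -0.07 (standard error 0.08, limma adjusted p = 0.57), with a 95% interval from -0.26 to 0.12. This interval ends below that of Slc39a10, which ran from 0.25 to 0.68. After median scaling the difference was -0.22, and the adjusted p of 0.13 still missed the threshold (limma).

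The ratio of these importers within a library does not depend on how libraries are scaled. Slc39a10 had 0.831 times the FPKM of Slc39a6 in NSN replicate 1 and 0.911 times in NSN replicate 2. In the SN libraries the ratio was 1.28 and 1.26. By these lengths Slc39a6 was the more abundant transcript in both NSN libraries and Slc39a10 in both SN libraries. This switch of order was lost with the vM39 lengths, which gave ratios of 1.09 and 1.2 in NSN and 1.68 and 1.66 in SN, and the read pairs of Slc39a10 exceeded those of Slc39a6 in all 4 libraries. The ratio was higher in SN by either length. With the recovered lengths it was 0.871 ± 0.057 in NSN and 1.27 ± 0.014 in SN (SD, n = 2), and the exact permutation test gave a two-sided p of 0.333, the smallest that this design allows.

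Together Slc39a6 and Slc39a10 made up 94.4% to 96.6% of the summed FPKM of the 10 listed ZIP genes (91.2% to 95% with the vM39 lengths). Slc39a10 held 42.9% and 45.5% of this sum in NSN, against 54.2% and 53.8% in SN. The sum leaves out Slc39a2, Slc39a4, Slc39a7 and Slc39a8, which were not listed. In vM39, 78.3% of the exonic bases of Slc39a7 lie in another gene, Gm20427. Of the importers, Slc39a1 and Slc39a14 were nearly absent. Slc39a1 (ZIP1, a broadly expressed plasma membrane importer, chromosome 3 from 90155138 to 90160924) had 3 and 4 read pairs in NSN and 2 and 1 in SN. Slc39a14 (ZIP14, which also carries iron and manganese, chromosome 14 from 70540678 to 70588914) had 2 and 6 read pairs in NSN and 7 in each SN library. Neither passed the filter, and no difference could be read at this depth. In vM39, 25.2% of the exonic bases of Slc39a1 lie in an antisense gene, Gm66066.

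**Figure D2:**
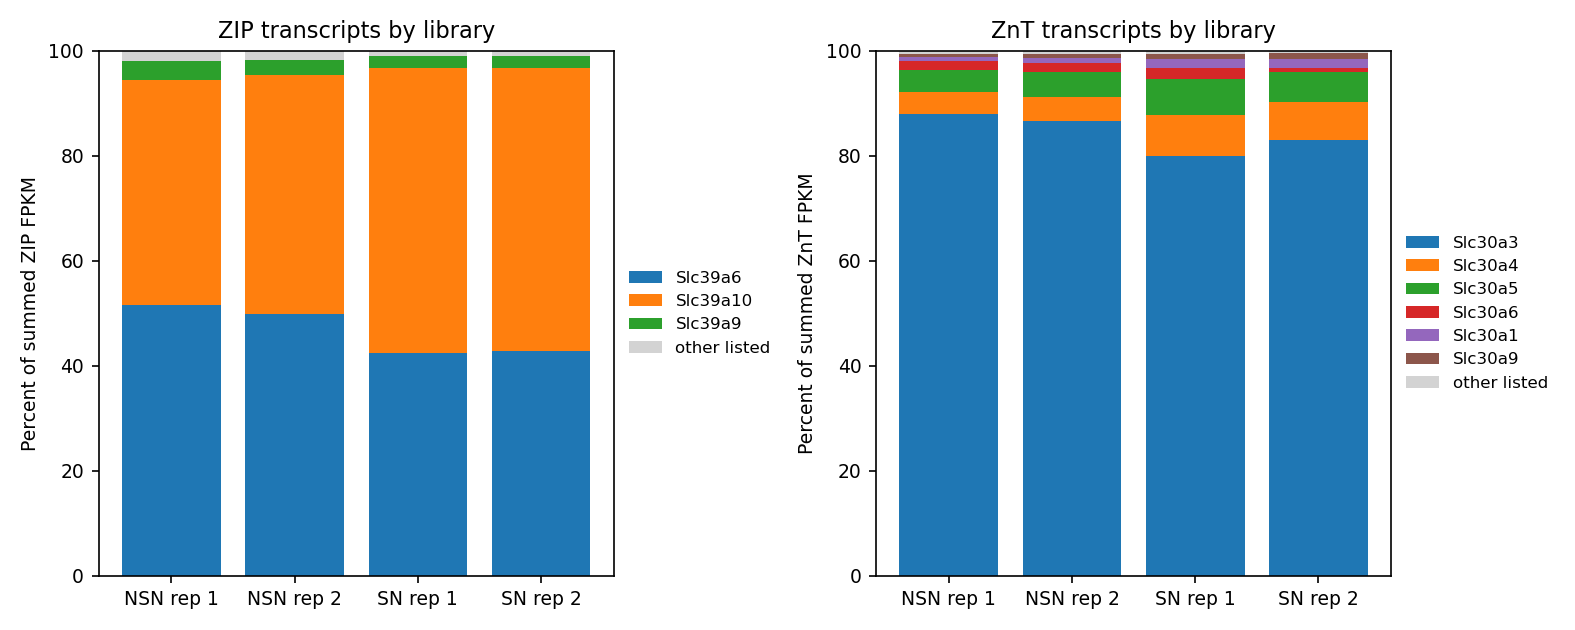
Stacked bars give each gene's percent of the summed FPKM of the listed ZIP genes (left) and ZnT genes (right) in the 4 libraries. Slc39a6 and Slc39a10 take nearly all of the ZIP sum, with Slc39a10 at 42.9% and 45.5% in NSN against 54.2% and 53.8% in SN, and Slc30a3 takes 79.9% to 88.0% of the ZnT sum.

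Slc30a1 encodes ZnT1, the ZnT protein that exports zinc across the plasma membrane. The gene (ENSMUSG00000037434.9) lies on chromosome 1 of GRCm39 from 191638808 to 191645361 on the plus strand. Its FPKM was 0.822 and 0.894 in the NSN libraries. It was 1.71 and 1.76 in SN, with no overlap, and the Poisson intervals of the SN libraries (from 1.45) lay above those of the NSN libraries (to 1.11). The level rose from 0.858 ± 0.051 to 1.73 ± 0.035 FPKM (SD, n = 2), on 75 and 84 read pairs in NSN and 153 and 166 in SN. The log2 difference was 0.72 (standard error 0.16, limma adjusted p = 0.047), on a scale that understates the change of so low a gene, whereas the FPKM themselves differed 2.02-fold. The call was lost after median scaling (0.61, adjusted p = 0.073), with a pseudocount of 0.1 (0.94, adjusted p = 0.051) and with any 1 library left out (0.68 to 0.76, limma adjusted p from 0.060 to 0.16, n = 3 libraries). The library left out was NSN replicate 1 for the highest adjusted p and NSN replicate 2 for the lowest. Counting was without strand, and 8.26% of the exonic bases of Slc30a1 lie in an antisense gene, 1700034H15Rik, so reads of the pair cannot be told apart there.

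Slc30a5 and Slc30a6 encode ZnT5 and ZnT6, which form a heterodimer that loads zinc into the early secretory pathway, and ZnT6 carries no zinc by itself. Slc30a5 (ENSMUSG00000021629.12, chromosome 13 from 100936795 to 100970006) had an FPKM of 4.64 and 4.69 in NSN, against 6.25 and 5.89 in SN. The groups did not overlap, but the log2 difference of 0.35 (standard error 0.12, 95% interval 0.06 to 0.63) was not called (limma adjusted p = 0.11). Slc30a6 (ENSMUSG00000024069.16, chromosome 17 from 74702579 to 74733299) had 2.02 and 1.83 in NSN, 1.90 in SN replicate 1 and 0.925 in SN replicate 2.

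Only SN replicate 2 was low for Slc30a6, and the groups overlapped. That library held 36 read pairs for the gene against 70 to 76 in the others, and its Poisson interval (0.648 to 1.28 FPKM) did not reach that of SN replicate 1 (1.48 to 2.40 FPKM). The log2 difference was -0.39 (standard error 0.26, limma adjusted p = 0.33). It became -0.02 without SN replicate 2 and -0.77 without SN replicate 1, so that 1 library decided its size. Slc30a5 had 2.30 and 2.56 times the FPKM of Slc30a6 in NSN and 3.30 and 6.37 times in SN. The transcripts of the heterodimer were thus unequal in every library. Of the exonic bases of Slc30a6, 14.6% lie in antisense genes.

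Slc30a9 encodes ZnT9, which exports zinc from mitochondria. The gene (ENSMUSG00000029221.17, chromosome 5 from 67464285 to 67515805) had an FPKM of 0.644 and 0.753 in NSN and 0.851 and 1.07 in SN. The SN libraries lay above the NSN libraries, on 64 to 110 read pairs. The log2 difference of 0.28 (standard error 0.18, 95% interval -0.15 to 0.72) was not called (limma adjusted p = 0.33).

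**Figure D3:**
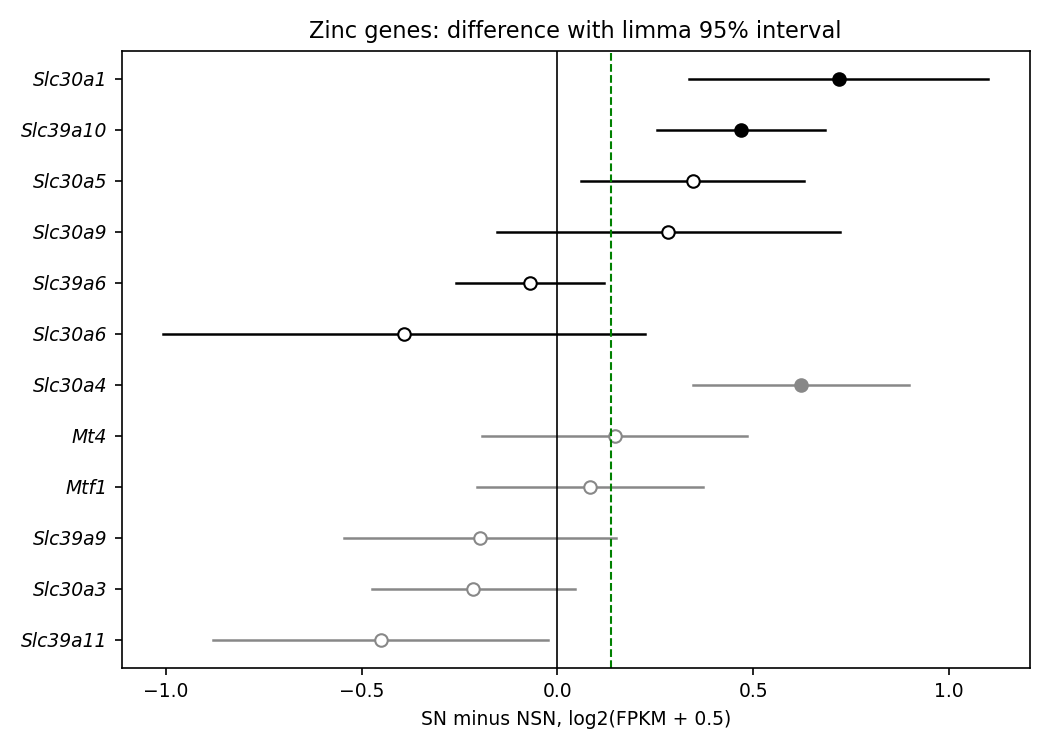
Points give the SN minus NSN difference on the log2(FPKM + 0.5) scale and bars the 95% interval from limma, for the 6 tested genes described here (black) and for the other tested ZIP and ZnT genes, Mt4 and Mtf1 (grey). Filled points were called, and the dashed line marks the median of all tested genes at 0.14. Slc30a1 (0.72), Slc39a10 (0.47) and Slc30a4 (0.62) are filled.

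Of the metallothioneins Mt1 and Mt2, Mt1 alone was listed, and its transcript was scarce. In vM39, 82.4% of the exonic bases of Mt2 lie in an antisense gene, Gm45774, and counting was without strand. Pcbp1, an iron gene named below, also has 82.4% of its exonic bases in an antisense gene and was listed at a mean of 83.6 FPKM. Mt3, with 0% of its exonic bases in another gene, was not listed. Whether the overlap kept Mt2 off the list was not tested, so the absence of Mt2 from the list does not show that its transcript is absent. Mt1 (ENSMUSG00000031765.10, chromosome 8 of GRCm39 from 94905710 to 94906955, plus strand) was listed at 0 in NSN replicate 1 and had 0.269 FPKM in NSN replicate 2. It had 0.094 FPKM in SN replicate 1 and 0.134 in SN replicate 2. These values rest on 0, 6, 2 and 3 read pairs, and the SN libraries fell between the NSN libraries. A count of 3 read pairs corresponds to 0.134 to 0.141 FPKM for this gene, and no fold is given. Mt1 exceeded 10.7% of all listed genes by its mean. Mtf1, the transcription factor that senses zinc and acts at the metal response elements, was present in every library at 4.57 and 4.48 FPKM in NSN and 4.85 and 4.80 in SN. Its log2 difference of 0.08 did not pass (limma adjusted p = 0.67), and its sign turned after median scaling.

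A list of 22 further genes of zinc handling was chosen by their known roles, with earlier results of these data known. Of these 22, 15 were listed and 8 were tested. Of the 8, 1 was called higher in SN and none lower (1 lower at an unadjusted p under 0.05 by limma, Slc39a11, and 0 lower by voom). Over all tested genes 5.95% were called higher, and a count of 1 of 8 is too small to set apart from that. Their median difference was -0.002, beside 0.14 over all tested genes. The called gene was Slc30a4, which encodes ZnT4, a transporter that loads vesicles and is known for zinc in milk. Its FPKM was 4.68 and 4.55 in NSN, against 7.32 and 7.44 in SN, without overlap. The log2 difference was 0.62 (standard error 0.12, limma adjusted p = 0.039). It fell short of the threshold at 0.48 with an adjusted p of 0.067 after median scaling. With 1 library left out its adjusted p (limma) was 0.036 without NSN replicate 2, 0.093 without NSN replicate 1, 0.10 without SN replicate 1 and 0.12 without SN replicate 2.

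Slc30a3, which encodes ZnT3 and is known for loading synaptic vesicles with zinc, had the highest mean FPKM of both families. Its FPKM was 98.6 and 86.6 in NSN and 73.7 and 86.0 in SN, and it held 79.9% to 88.0% of the summed FPKM of the 8 listed ZnT genes. This rank rests on a recovered length of 1171 bases, against 5096 in vM39. With the vM39 lengths Slc30a3 still held the largest part of the ZnT sum, 59.4% to 74.1%, but lay below Slc39a10 in 3 of the 4 libraries. The log2 difference of -0.21 did not pass the threshold (limma adjusted p = 0.22). Slc30a1 had 0.00833 and 0.0103 times the FPKM of Slc30a3 in NSN and 0.0232 and 0.0205 times in SN. With the vM39 lengths Slc30a1 held 2.49% to 5.55% of the ZnT sum. Among the other importers, Slc39a9, which acts at the Golgi, had a mean of 3.16 FPKM and a log2 difference of -0.20 (limma adjusted p = 0.39). Slc39a11 had a mean of 0.659 FPKM and a log2 difference of -0.45 (limma adjusted p = 0.14). Fbxo43, which encodes the zinc-binding inhibitor of the anaphase-promoting complex that holds the egg at metaphase II, had a mean of 52.1 FPKM and a log2 difference of 0.18 (limma adjusted p = 0.26).

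Genes of copper and iron handling were counted in the same way, beside the 7.93% called over all tested genes. At an unadjusted p under 0.05 limma gave 3695 of all 11672 genes in either direction. Voom called 2292 of 11662 genes, 1759 higher and 533 lower in SN. Of 10 copper genes, 8 were tested and none was called by limma, with 4 higher in SN at an unadjusted p under 0.05 and 1 called higher by voom, the copper importer Slc31a1, which is named after its value was seen. The 2 most abundant were Atox1, a cytosolic copper chaperone (mean 24.9 FPKM), and Slc31a2 (mean 16.2 FPKM). Of 12 iron genes, 8 were tested, and only Ireb2 was called by limma. At an unadjusted p under 0.05 there were 1 higher and 2 lower in SN, and voom called 1 higher and 1 lower. The latter was Slc11a2, a transporter of ferrous iron, named after its values were seen, at a mean of 7.92 FPKM in NSN and 6.02 in SN (log2 difference -0.37, limma adjusted p = 0.11). Ireb2 encodes iron regulatory protein 2, which binds the mRNAs of ferritin and of the transferrin receptor. Its FPKM was 6.53 and 8.63 in NSN and 16.6 and 14.6 in SN, a log2 difference of 1.0 (standard error 0.15, limma adjusted p = 0.036). This call held after median scaling (0.86, adjusted p = 0.048) but not without NSN replicate 1 (0.81, adjusted p = 0.068), SN replicate 1 (0.91, adjusted p = 0.073) or SN replicate 2 (1.09, adjusted p = 0.083). The ferritin heavy chain transcript Fth1 had a mean of 109 FPKM and a log2 difference of 0.05 (limma adjusted p = 0.76). Pcbp1, an iron chaperone for ferritin, had a mean of 83.6 FPKM.

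**Figure D4:**
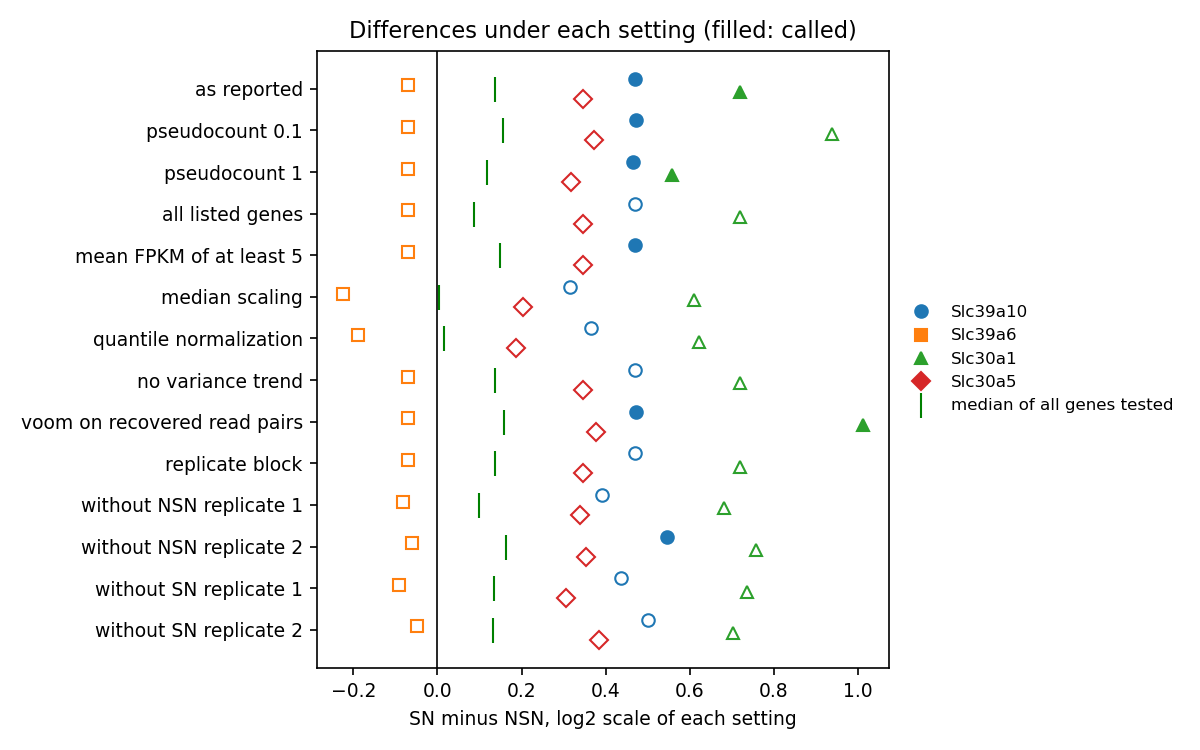
Points give the SN minus NSN difference of Slc39a10, Slc39a6, Slc30a1 and Slc30a5 under each setting of the processing on the log2 scale of that setting, filled where the gene was called, and green ticks give the median of all tested genes. Slc39a10 and Slc30a1 lie to the right of the median in every row where they were tested (Slc30a1 has no point at a mean of 5 FPKM) and Slc39a6 to the left, and Slc39a10 is filled in 5 of 13 alternatives and Slc30a1 in 2 of 12.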

How the data were processed

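RNA was measured by Smart-seq2 in 2 NSN and 2 SN libraries, grouped by their titles. Per the labels and the study's methods, the authors used Trim Galore 0.6.10 for trimming, HISAT2 for mapping to GRCm39 and featureCounts for unstranded counting of read pairs over exons, and deposited FPKM from a script of their own, the unit of every file. No listed gene is at 0 in 2 or more libraries. Values were compared as log2(FPKM + 0.5) with limma 3.58.1 in R 4.3.3 (variance trend, two-sided). The procedure was tested on simulated counts, at folds above that of Slc39a10 and without a shift of abundant transcripts. That test does not cover smaller folds or such a shift. Library totals were recovered from the lengths of 5 mitochondrial tRNA genes, and from them gene lengths and whole read pairs (tolerance 1e-06). Positions, exon overlaps are from GENCODE vM39 on GRCm39. Its exonic lengths were 1.60 times the recovered ones at the median, so shares of exonic bases in other genes, and orders between genes, depend on the annotation. Named were the 10 genes, called genes of the other lists, their 2 most abundant genes, and tested ZIP and ZnT genes. The members and lists were chosen with earlier results of these data known. The replicates of each group differed by more than counting noise (chi-square per degree of freedom 7.17 and 8.13). Figures and other values used Python 3.11.15, pandas 2.3.3, scipy 1.17.1 and matplotlib 3.10.9.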

Additional observations from a re-analysis of the deposited data

How the results depend on the processing

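The number of genes of the whole table called by limma was 926 and that of the 10 zinc genes was 2. The first became 1496 where the mean FPKM had to reach 5, 234 with libraries scaled to the median gene, 230 with quantile normalization, 2292 with voom on the recovered read pairs, and 0 with all listed genes or without the variance trend (4092 and 3449 genes at an unadjusted p under 0.05). The second became 1 with a pseudocount of 0.1 or where the mean FPKM had to reach 5 (3 of the 10 genes tested), and 0 with all listed genes, median scaling, quantile normalization or no variance trend, with 3 genes at an unadjusted p under 0.05 in each of these 4, while voom called 2. With 1 library left out the whole table gave 0 to 1685 calls (0 without NSN replicate 1, with 2278 genes at an unadjusted p under 0.05) and the zinc genes 0 to 1, and the lone library of a group is then assumed to vary like the other group. The replicate numbers were not taken to pair the libraries, since the replicate differences of NSN and SN correlated at -0.07 across genes. The replicate block gave 422 calls in the whole table and 0 of the zinc genes (3 at an unadjusted p under 0.05). Whole-table counts at an unadjusted p under 0.05 (limma) were 3166 with median scaling, 3158 with quantile normalization and 3408 with the replicate block. Of the named genes, Mtf1 turned to -0.057 after median scaling and -0.0629 after quantile normalization, Fth1 to -0.099 after median scaling and Pcbp1 to -0.144 after median scaling and -0.0613 after quantile normalization, and Mt4 to -0.0044 after quantile normalization. With 1 library left out, Fth1 ranged from -0.0919 to 0.201, Pcbp1 from -0.0474 to 0.0663 and Slc31a2 from -0.189 to 0.0714, each changing sign without SN replicate 2. None of these 5 genes was called. Over the 21 genes named in the text that were tested, the alternatives gave 224 values with the same sign and the same call, 31 with a lost call, 2 with a gained call (Slc31a1 and Slc11a2, both by voom) and 9 with another sign. With the vM39 lengths the mean ratio of Slc39a10 to Slc39a6 moved to 1.15 in NSN and 1.67 in SN, that of Slc30a5 to Slc30a6 to 1.88 and 3.75, and that of Slc30a1 to Slc30a3 to 0.0376 and 0.0879. Where a result moved, the cause was not tested, unless fewer libraries or genes show it.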

Other observations

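The genes in this part were chosen after their values were seen. The metallothionein Mt4, known from stratified epithelia, had more read pairs than Mt1, with 30 and 29 in NSN against 29 and 37 in SN, or 4.33, 4.07, 4.27 and 5.17 FPKM. Its log2 difference was 0.15 (limma adjusted p = 0.51). Mt4, Mt2 and Mt1 lie on the same strand of chromosome 8 of GRCm39, with starts at 94863825, 94898819 and 94905710. The importer Slc39a5 did not pass the filter, and showed 17 and 12 read pairs in NSN against 4 and 3 in SN. Its FPKM was 0.454 and 0.312 in NSN and 0.109 and 0.0776 in SN, and the difference was not tested at these counts. The importer Slc39a11, which passed the filter and was described above (limma adjusted p = 0.14), had 40 and 43 read pairs in NSN against 25 and 22 in SN.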
